A study of Mus musculus with 8 samples.

Results

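The oxidative phosphorylation machinery was examined in cultured bone marrow progenitors with and without an shRNA against Pcgf1, a Polycomb protein that defines one of the variant forms of Polycomb repressive complex 1. Genes were taken by symbol: all those starting with Nduf, Uqcr, Cox4 to Cox8 or Atp5, and Sdha, Sdhb, Sdhc and Sdhd. Subunits whose genes have other symbols are not among them. The array held 88 such genes among 32971 named genes and unnamed transcripts, and 84 of them were bright enough to be tested, among 17302 tested in all. Of the 88, 82 encode subunits of the respiratory complexes: 35 of complex I, 4 of complex II, 8 of complex III, 18 of complex IV with Ndufa4, and 17 of complex V. The names also caught 5 Ndufaf genes, which encode proteins that build complex I, and Cox7a2l, whose protein helps complexes III and IV to form a supercomplex.

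Every culture came from a Runx1 Δ/Δ mouse of mixed C57Bl/6 and 129SvJ background, so both groups lacked this transcription factor of blood stem cells and no wild-type culture stood beside them. Lineage-depleted bone marrow of 4 mice was kept for 2 days in serum-free medium with IL-3 at 10 ng/ml, SCF at 50 ng/ml, and both IL-11 and Flt3 ligand at 100 ng/ml. Cells of each mouse then received a retrovirus with a control shRNA or with an shRNA against Pcgf1, and puromycin (5 µg/ml) from 24 h after transduction for 36 h. RNA of the 8 cultures was hybridised to one-colour arrays, 4 per group, with 1 control and 1 Pcgf1 array per mouse; how the Runx1 allele was deleted, and the sex and age of the mice, are not given in the sources used here. The cultures were thus bulk RNA of mixed progenitors, in which fewer cells of a type and less RNA per cell cannot be told apart.

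Oxidative phosphorylation passes electrons from NADH at complex I and from succinate at complex II through complex III to oxygen at complex IV. Complexes I, III and IV pump protons across the inner mitochondrial membrane, and complex V, the ATP synthase, uses their return to make ATP. Most subunits are encoded in the nucleus, as are all those described here, and their genes are active in nearly every cell type; a few complex IV subunits also have a second gene that is used mainly in muscle, testis or lung. Blood stem cells at rest are known to rely on glycolysis more than their dividing progeny do.

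The shRNA lowered its target. Pcgf1 stood at −0.24, −0.23, −0.45 and −0.01 in the control cultures of mice 1 to 4 and at −1.63, −1.64, −1.74 and −1.35 in the Pcgf1 shRNA cultures, as log2 signal relative to the 75th percentile of each array, the scale of all levels given here. It fell by 1.36 (SE 0.12), to 39% of the control level (limma adjusted p = 0.0197). Without mouse 1, 2 or 3 the adjusted p was 0.113, 0.352 or 0.0904, at a log2 difference between −1.38 and −1.34. Over the whole array 132 of 17302 genes passed an adjusted p of 0.05, 103 of them above and 29 below the controls, and 921 passed when mouse was a block in the fit; without mouse 1, 2, 3 or 4 the first count was 1, 0, 0 or 363 and the blocked one 284, 0, 306 or 145. All 13 measured progenitor markers of 14 listed, among them Kit, were above background on all 8 arrays. Of these 2 passed as higher, Cd34 by 0.94 and Sox4 by 0.86 (limma adjusted p of 0.0251 and 0.0206), or 3 with mouse as a block. Signals of 13 measured neutrophil maturation markers, where 1 is the array's 75th percentile, were summed on each array. The sums ranged from 167 to 426 in the controls and from 50.4 to 141 with the Pcgf1 shRNA. Such sums are carried mostly by the brightest probes, here Chil3 and S100a9, below Hba-a1 (erythroid) and Cpa3 (mast cell). Of the 13 markers 4 passed as lower, or 10 with mouse as a block, where 1, Cxcr2, passed as higher by 0.54. Ngp, among the 4 and the 10, and Ltf, among the 10, were above background on 4 control and 0 Pcgf1 arrays. Only the control arrays made these genes bright enough to be tested. Erythroid sums ranged from 119 to 252 against 52.5 to 184, monocyte sums from 99.7 to 203 against 82.4 to 140, mast cell sums from 33.8 to 47.3 against 33.7 to 42.9, and proliferation sums from 252 to 298 against 253 to 266; 0, 0, 1 and 0 of their genes passed as lower, or 3, 3, 2 and 0 with the block. Their part in the values below was not tested.

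No oxidative phosphorylation gene passed the threshold. Of the 84 tested, 0 were called without a block, beside 0.763% of all genes, and 0 with mouse as a block, beside 5.32% of all genes. At an unadjusted p under 0.05, limma gave 3 of the 84 (3.57%, against 12.2% of all genes tested) and, with mouse as a block, 4 (4.76%, against 23.5%). The mean was higher with the Pcgf1 shRNA for 40 genes and lower for 44. The median log2 difference was −0.0010, beside 0.0022 over all genes tested, and shifted with the scaling of the arrays, to between −0.0077 and 0.0996, where the largest value came with median scaling, which moved the median of all genes to 0.10 as well. In no gene did the 4 control values and the 4 Pcgf1 shRNA values lie apart; this happened in 7.16% of all genes.

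The arrays held these differences within narrow limits. The 95% interval of the difference lay inside ±0.5 on the log2 scale, a change of 1.41-fold, for 81 of 84 genes (96.4%, against 58% of all genes tested), and the difference itself lay inside ±0.25, or 1.19-fold, for 82. The exceptions to the first limit were Cox6a2, Cox6b2 and Cox7a1, which are alternative isoforms of complex IV subunits. The SE of the difference had a median of 0.102 over the 84 genes and of 0.129 over all genes. Control cultures of different mice had a median SD of 0.103 for these genes and of 0.178 for all genes; with the Pcgf1 shRNA it was 0.152, against 0.179. All 84 genes were well above background on all 8 arrays and no spot was saturated. Most of the 84 read above the array's 75th percentile, and the values for all genes were not matched for brightness.

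**Figure D1:**
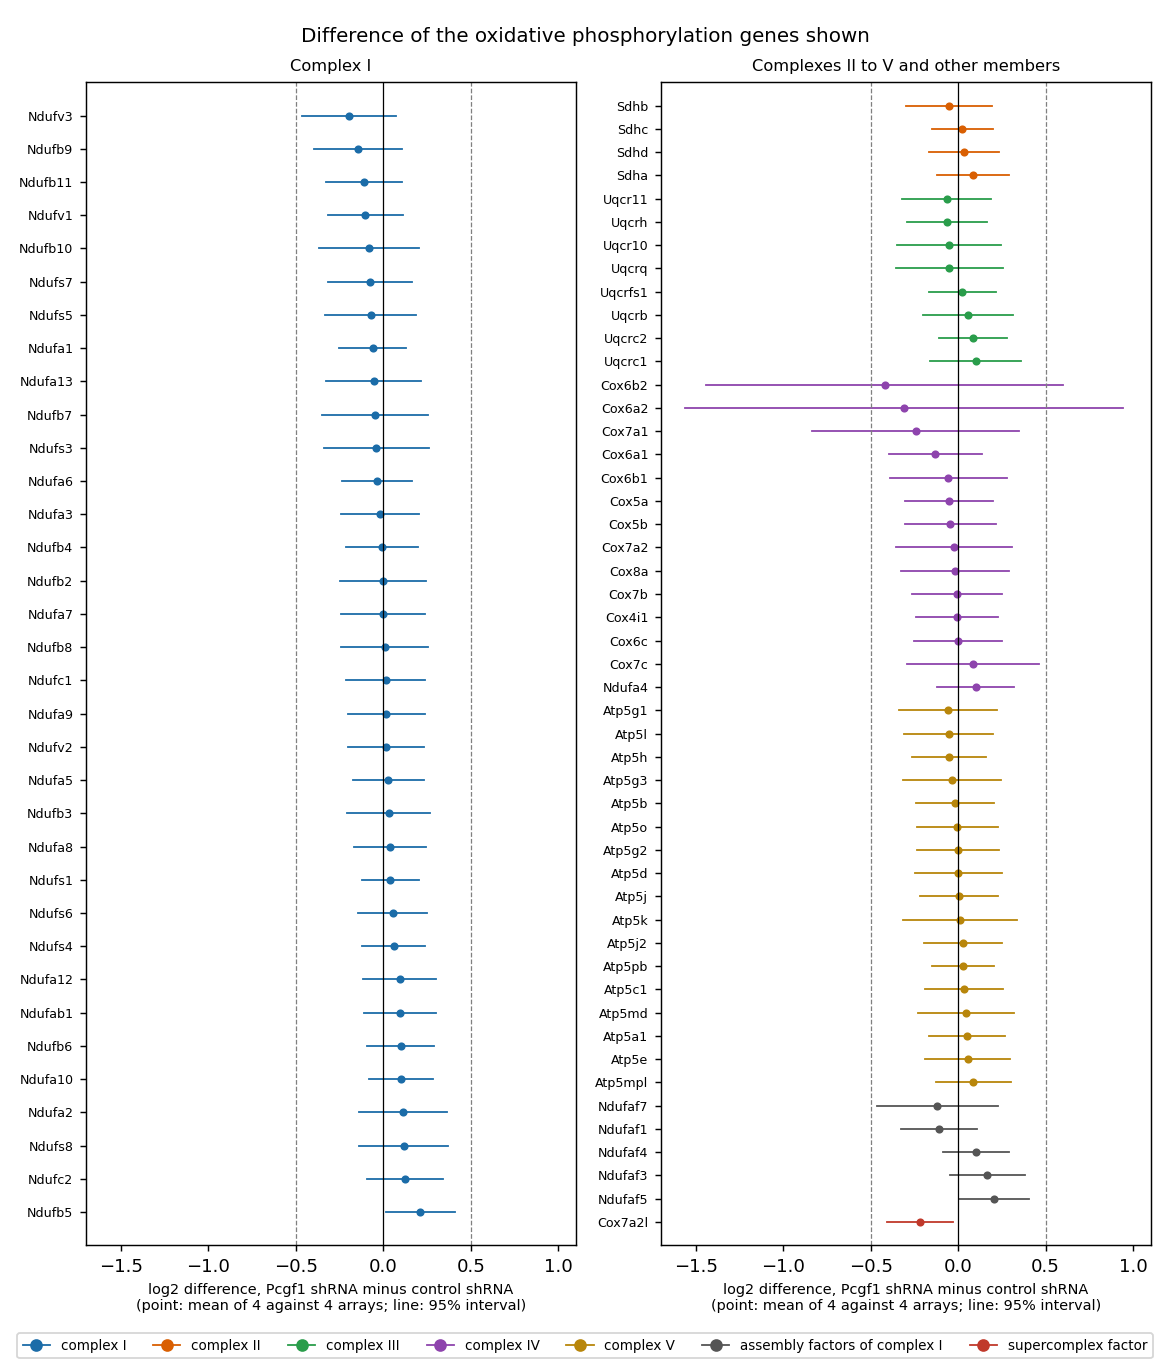
Log2 difference, Pcgf1 shRNA minus control shRNA, for 83 of the 84 measured genes of oxidative phosphorylation, with complex I on the left and all others on the right; points are differences of the means of 4 against 4 arrays and lines their 95% intervals. 80 of the intervals drawn stay inside ±0.5, and those of Cox6b2, Cox6a2 and Cox7a1 are the wide ones.

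Complex I, the NADH dehydrogenase, was measured for 35 of 35 genes: 19 means were higher and 16 lower, with differences from −0.20 to 0.21 and a median of 0.01. Ndufs1, which carries iron-sulphur clusters of the electron path, read 4.75, 4.68, 4.63 and 4.72 in the control cultures of mice 1 to 4 and 4.77, 4.74, 4.77 and 4.65 with the Pcgf1 shRNA. The ranges overlapped, and the difference was 0.04 (SE 0.07; 95% interval −0.12 to 0.20). Further core subunits, Ndufv1 and Ndufv2 at the NADH site and Ndufs3, Ndufs7 and Ndufs8 on the way to ubiquinone, differed by −0.10, 0.02, −0.04, −0.08 and 0.12 in that order. Toward the ends of the range stood accessory subunits. Ndufv3 read 3.24, 3.51, 3.22 and 3.29 against 3.31, 3.23, 3.06 and 2.87, with overlapping ranges and a higher value in mouse 1. The difference was −0.20 (SE 0.12, limma adjusted p = 0.565). Its dimmer probes, also above background on all 8 arrays, differed by −0.09 and −0.02. For Ndufb9 the difference was −0.15 (SE 0.11).

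Ndufb5, an accessory subunit of the membrane arm, had the highest difference of the 84 genes. It read 1.94, 1.97, 2.11 and 2.08 in the controls and 2.23, 2.23, 2.38 and 2.10 with the Pcgf1 shRNA. Every mouse gave a higher value with the Pcgf1 shRNA, by only 0.02 in mouse 4, whose 2.10 lay just below the highest control. The log2 difference of 0.21 (SE 0.09; 95% interval 0.01 to 0.41) had a limma adjusted p of 0.380, and of 0.178 with mouse as a block. Over the alternatives its adjusted p ran from 0.0517 to 1.00 and its difference from 0.18 to 0.31.

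Complex II, the succinate dehydrogenase that also serves the citric acid cycle, was measured for all 4 subunits. Sdha, which binds the flavin cofactor, read 2.47, 2.36, 2.43 and 2.65 against 2.46, 2.56, 2.67 and 2.56. Its difference was 0.09 (SE 0.09), with overlapping ranges and higher values in mice 2 and 3. The iron-sulphur subunit Sdhb and the membrane anchors Sdhc and Sdhd differed by −0.05, 0.02 and 0.03.

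Complex III, the cytochrome c reductase, had 4 higher and 4 lower means among the 8 genes taken by symbol, from −0.07 to 0.10. Cyc1, its cytochrome c1, did not match the symbols and was listed with the electron carriers. Named after its values were seen, Cyc1 differed by 0.10. Uqcrc1, a core protein, read 5.57, 5.63, 5.68 and 5.84 in the controls and 5.97, 5.82, 5.82 and 5.52 with the Pcgf1 shRNA. It was higher with the Pcgf1 shRNA in mice 1 to 3, and in mouse 4 its value was the lowest of all 8, which left a difference of 0.10 (SE 0.11; limma adjusted p = 0.775). Without mouse 4 that difference was 0.24, and over the replicates left out in turn it ranged from 0.0018 to 0.24. Uqcrc2, the second core protein, differed by 0.08, the Rieske iron-sulphur protein Uqcrfs1 by 0.02, and the hinge protein Uqcrh by −0.06.

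Complex IV, cytochrome c oxidase, had lower means in 12 of its 14 measured genes, with a median of −0.03. Set against the median of all genes, 12 of 14 lay below it, also with median scaling, and 9 and 8 with quantile normalization and with normexp background correction. The balance turned without mouse 4, where 5 of 14 lay below and the median was 0.05, and 5 lay below with array weights. Cox4i1, the widely used form of subunit IV, read 7.11, 7.26, 7.14 and 7.09 against 7.33, 7.19, 7.13 and 6.91, a difference of −0.0061 (SE 0.10). Its Pcgf1 shRNA values included both the highest and the lowest of the 8. Cox5a and Cox5b both differed by −0.05, and Ndufa4, which sits in this complex despite its name, by 0.10.

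Complex V, the ATP synthase, was measured for 17 of 17 genes, 9 higher and 8 lower, and all lay between −0.06 and 0.09. Atp5b, the catalytic subunit, read 7.27, 7.60, 7.41 and 7.45 against 7.53, 7.44, 7.42 and 7.26. The ranges overlapped and the difference was −0.02 (SE 0.10; 95% interval −0.24 to 0.20), turning to 0.02 when the probes of the gene were averaged and to 0.03 with quantile normalization. Atp5a1, Atp5c1 and Atp5o, of the catalytic head and the stalk, differed by 0.05, 0.03 and −0.0049. The rotor ring protein is made from the genes Atp5g1, Atp5g2 and Atp5g3, which differed by −0.06, −0.0020 and −0.03. Atp5mpl, a small membrane subunit, was at 0.09, and Atp5h, of the stalk, at −0.05.

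Several complex IV subunits come in pairs of genes, a general one and one for particular tissues, and the array told them apart by probes of their own. Levels of different probes cannot be ranked, so each isoform was compared only between cultures. Of the tissue-type forms 4 could not be measured. The lung-type Cox4i2 was well above background on 1 of 4 control arrays and 0 of 4 Pcgf1 arrays, and the testis forms Cox7b2 and Cox8c on 0 of 8. The muscle form Cox8b was above background on 1 array, that of the Pcgf1 shRNA culture of mouse 4, at −3.37 against −7.88 to −6.84 on the other 7. The general form Cox8a was measured in every culture and differed by −0.02.

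The muscle forms Cox6a2 and Cox7a1 and the testis form Cox6b2 were measured. Mouse 4 stood apart from mice 1 to 3 in Cox6a2 and Cox7a1, and was the highest in both groups in Cox6b2. Cox6a2 read −1.87, −2.21, −2.15 and −0.50 in the controls and −1.94, −2.51, −2.90 and −0.62 with the Pcgf1 shRNA. Both cultures of mouse 4 stood far above the other 6. The Pcgf1 shRNA value was the lower one in every mouse, by 0.07 to 0.75, for a difference of −0.31 (SE 0.55; limma adjusted p = 0.871, and 0.213 with mouse as a block). Cox7a1 read 1.08, 1.03, 1.19 and 0.34 against 1.04, 0.78, 0.84 and 0.02. Here mouse 4 was the lowest in both groups, and the Pcgf1 shRNA value was again lower in every mouse. The difference was −0.24 (SE 0.26; limma adjusted p = 0.759, and 0.145 with the block, at an unadjusted p of 0.024). Cox6b2 read 1.07, 1.91, 1.32 and 2.45 against 1.15, 1.30, 0.29 and 2.32. It was lower with the Pcgf1 shRNA in mice 2 to 4 and not in mouse 1, a difference of −0.42 (SE 0.45; 95% interval −1.44 to 0.60). With mouse as a block the 95% intervals narrowed to between −0.63 and 0.00020 for Cox6a2, −0.88 and 0.04 for Cox6b2, and −0.44 and −0.05 for Cox7a1, and 82 of the 84 genes had an interval inside ±0.5.

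The general partners of these genes were steadier. Cox6a1 read 8.01, 8.30, 8.10 and 7.99 against 8.16, 8.06, 7.92 and 7.74, a difference of −0.13 (SE 0.12). Cox6b1 differed by −0.06 (SE 0.15), Cox7a2 by −0.02 (SE 0.14) and Cox7b, the general partner of the unmeasured Cox7b2, by −0.0067 (SE 0.11). In Cox7a2 the Pcgf1 shRNA cultures of mice 1 and 4 gave the highest and the lowest value, 5.05 and 4.37.

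**Figure D2:**
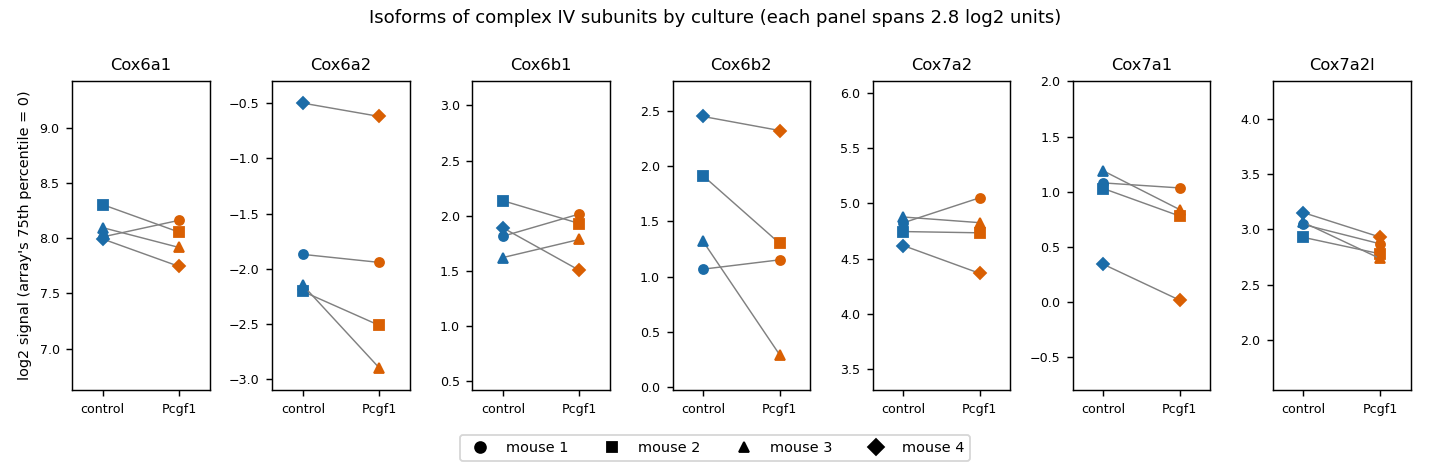
Log2 signal relative to the array's 75th percentile for isoform pairs of complex IV subunits, by shRNA, with 1 symbol per mouse and lines joining the cultures of a mouse; every panel spans the same number of log2 units. Cox6a2, Cox6b2 and Cox7a1 spread over a wide range, with mouse 4 at −0.50 and −0.62 for Cox6a2, while Cox6a1, Cox6b1 and Cox7a2 stay within a narrow band.

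The DNA before the start is shown for the general and the tissue-type gene of the pairs Cox7a2 and Cox7a1, and Cox8a and Cox8b, because Cox7a1 had a wide spread over the mice and Cox8b was below background on most arrays, while their general partners were measured throughout. The 250 bases before the start of each gene (RefSeq, GRCm38.p6) are written along the gene's strand, with the dinucleotide CG in capitals: Cox7a2 at chr9:79759854-79760103 (minus), Cox7a1 at chr7:30183921-30184170 (plus), Cox8a at chr19:7217617-7217866 (minus) and Cox8b at chr7:140900447-140900696 (minus).
Cox7a2: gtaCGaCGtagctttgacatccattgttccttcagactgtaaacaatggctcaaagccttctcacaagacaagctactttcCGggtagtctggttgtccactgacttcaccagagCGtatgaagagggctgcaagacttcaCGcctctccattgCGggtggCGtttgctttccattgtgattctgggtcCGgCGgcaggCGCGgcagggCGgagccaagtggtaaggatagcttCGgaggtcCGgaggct
Cox7a1: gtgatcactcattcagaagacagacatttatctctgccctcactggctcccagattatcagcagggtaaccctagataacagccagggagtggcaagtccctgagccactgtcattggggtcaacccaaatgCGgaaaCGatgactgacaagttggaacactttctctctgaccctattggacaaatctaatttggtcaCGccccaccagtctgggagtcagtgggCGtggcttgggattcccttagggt
Cox8a: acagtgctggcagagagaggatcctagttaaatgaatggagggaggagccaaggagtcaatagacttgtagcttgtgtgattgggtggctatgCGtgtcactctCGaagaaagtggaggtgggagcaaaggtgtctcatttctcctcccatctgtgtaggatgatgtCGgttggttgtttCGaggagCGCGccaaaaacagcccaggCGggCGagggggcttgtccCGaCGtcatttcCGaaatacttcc
Cox8b: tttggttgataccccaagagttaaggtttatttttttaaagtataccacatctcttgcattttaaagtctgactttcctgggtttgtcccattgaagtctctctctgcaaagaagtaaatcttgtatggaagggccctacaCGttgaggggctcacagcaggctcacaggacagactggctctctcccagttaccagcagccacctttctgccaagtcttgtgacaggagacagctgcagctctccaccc
CG stood at 14 places before Cox7a2 and 4 before Cox7a1, and at 11 before Cox8a and 1 before Cox8b. Promoters of 300 bases, 250 before and 50 after the start, were found for 73 of the 88 genes, 78 promoters in all. They held a median of 19 CG and 58% G and C, against 7 CG and 52.7% over all 32851 promoters of the table. In these wider promoters Cox6b1 had 17 CG and its testis form Cox6b2 10, whereas Cox7b had 5 and its testis form Cox7b2 10. Unmethylated CG-rich DNA is where Polycomb complexes of the kind that holds Pcgf1 are known to bind; no binding was measured here.

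Genes for respiratory subunits are known targets of NRF1, a transcription factor that binds a palindromic site. Its palindrome, the letters in capitals in the lines below, reads the same on both strands and occurred in 6 of the 78 promoters (7.69%, against 0.971% of all promoters), and the shorter GCATGCG, searched on both strands and contained in the longer one, in 12 (15.4%, against 3.58%). The 6 are shown with 10 bases on either side and the letters in capitals, since they span complexes III, IV and V and the assembly of complex I: Atp5g2 at chr15:102671070-102671099 (minus), Atp5k at chr5:108434430-108434459 (minus), Cox6a1 at chr5:115349101-115349130 (minus), Ndufaf4 at chr4:24897960-24897989 (plus), Ndufaf5 at chr2:140170652-140170681 (plus) and Uqcrc1 at chr9:108936668-108936697 (plus), all GRCm38.p6.
Atp5g2: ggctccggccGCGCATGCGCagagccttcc
Atp5k: tttcactgcgGCGCATGCGCctttctggct
Cox6a1: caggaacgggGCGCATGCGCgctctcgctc
Ndufaf4: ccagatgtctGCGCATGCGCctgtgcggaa
Ndufaf5: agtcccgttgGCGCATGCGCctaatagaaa
Uqcrc1: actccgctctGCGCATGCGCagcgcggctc
The log2 differences of these 6 genes were −0.0020, 0.01, −0.13, 0.10, 0.20 and 0.10 in the order shown, and 0 of them passed the threshold. Nrf1 itself, chosen for this remark after its values were seen, differed by 0.01. A match of letters is not a measured binding site. The palindrome itself holds CG, and these promoters held a median of 19 CG against 7 over all promoters. The shares above were not matched for this.

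The assembly factors of complex I, proteins that help to put the enzyme together and are absent from the finished complex, had higher means in 3 of 5 genes, a count that held under each scaling, and a median of 0.10. Ndufaf5, which modifies an arginine of Ndufs7 during assembly, read −0.95, −0.95, −0.88 and −0.79 in the controls and −0.83, −0.64, −0.56 and −0.73 with the Pcgf1 shRNA. Every mouse was higher, by 0.06 in mouse 4, and only the Pcgf1 shRNA value of mouse 1 lay inside the control range. The difference was 0.20 (SE 0.09; 95% interval 0.0047 to 0.40), with a limma adjusted p of 0.400 and of 0.197 with the block. Ndufaf3 read 1.98, 1.92, 1.99 and 1.92 against 2.21, 2.24, 2.14 and 1.89. Its Pcgf1 shRNA values lay above all controls in mice 1 to 3 and below all of them in mouse 4, and the difference of 0.17 (SE 0.09) had an adjusted p of 0.536. Ndufaf4 differed by 0.10 (SE 0.08).

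Cox7a2l, the supercomplex factor, had the smallest p of the 84 genes. It read 3.04, 2.93, 3.06 and 3.15 in the controls and 2.87, 2.78, 2.74 and 2.93 with the Pcgf1 shRNA. The value was lower with the Pcgf1 shRNA in every mouse, by 0.15 to 0.33, and the groups met at a single point, where the highest Pcgf1 shRNA culture and the lowest control both stood at 2.93. The difference was −0.22 (SE 0.08; 95% interval −0.41 to −0.03), or 1.16-fold, with a limma adjusted p of 0.345, and of 0.134 with the block. When arrays were weighted by their precision, which gave both arrays of mouse 4 a low weight (0.318 and 0.234) and the Pcgf1 shRNA array of mouse 2 a weight of 7.01 against at most 1.44 for the other 7, 3 of the 84 genes passed, beside 9.55% of all genes: Cox7a2l at −0.24, Ndufaf3 at 0.26 and Ndufaf5 at 0.27, with limma adjusted p of 0.0440, 0.0378 and 0.0451. Over all alternatives the adjusted p ran from 0.0440 to 0.984 for Cox7a2l, from 0.0378 to 1.00 for Ndufaf3 and from 0.0451 to 1.00 for Ndufaf5, and these 3 differences kept their direction in all of them.

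Values higher in 4 of 4 mice were found for 2 of the 84 genes, Ndufaf5 and Ndufb5, beside 15.6% of all genes. Lower in 4 of 4 were Cox6a2, Cox7a1, Cox7a2l and Ndufaf1, the last named after its values were seen, or 4 genes beside 16.2% of all genes.

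The difference between the shRNAs varied from mouse to mouse in the same way for most of these genes. Within mouse 1 the 84 genes had a median log2 difference of 0.15, within mouse 2 of −0.01, within mouse 3 of 0.09 and within mouse 4 of −0.21, whereas over all genes tested the medians were 0.04, 0.01, 0.0044 and −0.05. In mouse 1 the Pcgf1 shRNA culture was the higher one for 76 of 84 genes, in mouse 2 for 38 and in mouse 3 for 57. In mouse 4 it was the lower one for 82, the exceptions being Ndufaf5 and Ndufb5. The lowest of the 4 within-mouse differences was that of mouse 4 for 78 of 84 genes (92.9%), against 39.5% of all genes, and the lowest of the 8 arrays was the Pcgf1 shRNA array of mouse 4 for 54 of 84 (64.3%), against 26% of all genes.

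**Figure D3:**
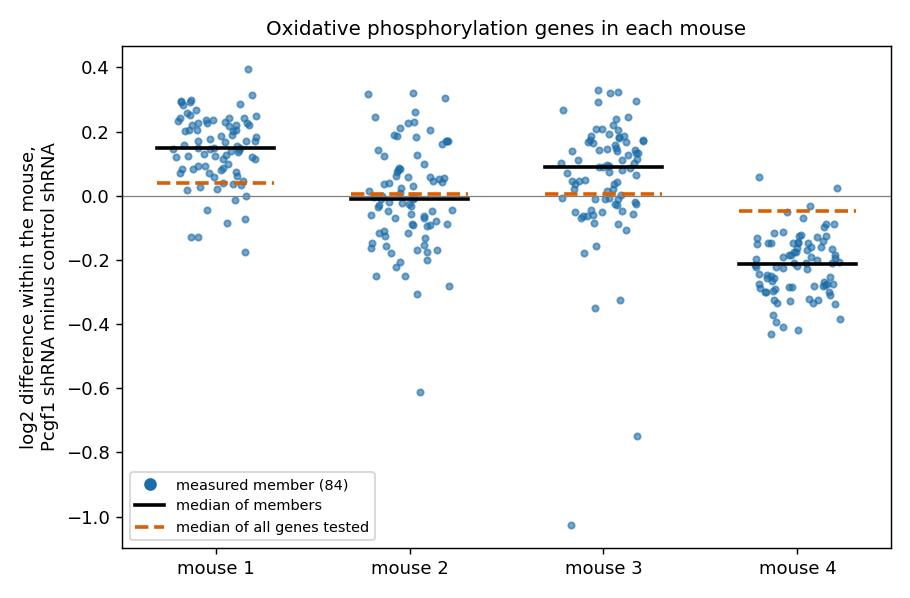
Log2 difference within each mouse, Pcgf1 shRNA minus control shRNA, for the 84 measured genes (points), with their median (black line) and the median of all genes tested (dashed line). The median of the 84 genes is 0.15 in mouse 1 and −0.21 in mouse 4, while the median of all genes stays between −0.05 and 0.04.

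Every complex lay below 0 in mouse 4, while the other mice were less uniform. In mouse 4 the medians were −0.23, −0.11, −0.29, −0.22 and −0.19 for complexes I to V, and −0.11 for the assembly factors. In mouse 1 they were 0.15, −0.05, 0.18, 0.15 and 0.19, so that complex II was the one complex below 0 there. In mouse 2 they were 0.04, 0.11, 0.01, −0.08 and −0.03, and in mouse 3 they were 0.10, 0.13, 0.10, −0.02 and 0.05, so that complex IV stood below 0 in both. Genes of one complex were read from the same 8 arrays and are not separate samples of a mouse. Relative to the median of all genes the medians of the 84 genes in mice 1 to 4 were 0.11, −0.02, 0.08 and −0.17, and the same with median scaling. They were 0.04, 0.00010, 0.06 and −0.07 with quantile normalization, where 60 genes were lowest in mouse 4, and 0.06, 0.09, 0.15 and −0.11 with normexp background correction. The Pcgf1 shRNA array of mouse 4 had the highest 75th percentile signal of the 8, 854.2 against 519 to 721.3, with 60.42% of spots above background against 54.76% to 62.03%. Its part in the pattern was not tested.

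Leaving out mouse 4 changed the balance of the 84 genes, though still 0 passed. 67 of 84 were then higher with the Pcgf1 shRNA, at a median of 0.07, and 13 had an unadjusted p under 0.05 (15.5%, against 23% of all genes), 12 of them higher; the smallest limma adjusted p was 0.104. Without mouse 1, 2 or 3 the medians were −0.05, 0.0069 and −0.02, and 0 genes had an unadjusted p under 0.05 in the fit without a block. With mouse as a block 6, 0 and 0 did, and 11 without mouse 4. The shares of all genes in these fits are not given here, so the counts cannot be set beside them. With all 4 mice and the block, 4 of the 84 did, against 23.5% of all genes.

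Related pathways were read from 6 lists of genes. In the fit without a block 0 genes of any list passed the threshold, beside 0.763% of all genes tested. Further assembly factors of the respiratory complexes (40 of 45 listed genes measured) had a median difference of 0.02, electron carriers and the ADP/ATP exchange proteins (23 of 27) of 0.00010, and the regulators of mitochondrial DNA expression and biogenesis (24 of 25) of 0.07. The citric acid cycle (22 of 23) stood at 0.05, glycolysis (22 of 23) at 0.02, and antioxidant and mitochondrial stress genes (22 of 22) at −0.01. An unadjusted p under 0.05 was reached by 2, 2, 3, 4, 1 and 1 genes in that order, against 12.2% of all genes tested. In mouse 4 their medians were −0.20, −0.16, −0.11, −0.13, −0.07 and −0.20, all below 0, as for the respiratory subunits. The median of all genes tested was −0.05 in that mouse. Outside these pathways, the proliferation markers stood at −0.18 there and the progenitor markers at −0.02.

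**Figure D4:**
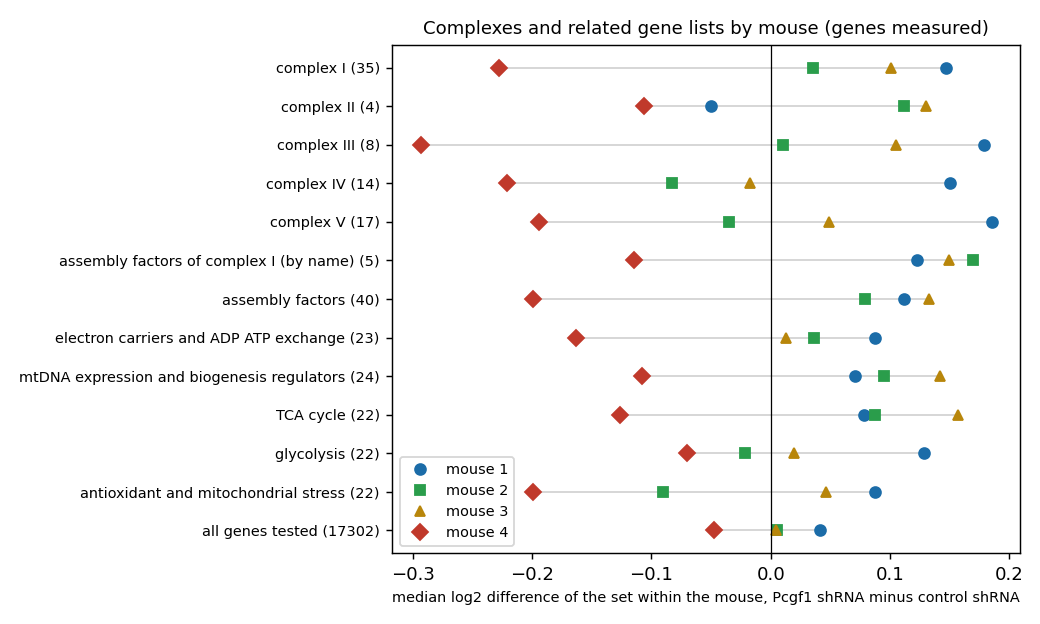
Median log2 difference within each mouse, Pcgf1 shRNA minus control shRNA, for the complexes of oxidative phosphorylation, the assembly factors the related gene lists and all genes tested, with the number of genes measured in brackets and 1 symbol per mouse. Mouse 4 lies below 0 in every pathway set shown, from −0.29 for complex III to −0.07 for glycolysis, and at −0.05 for all genes tested.

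With mouse as a block 1 gene of the lists passed, beside 5.32% of all genes. Ldhb, the lactate dehydrogenase subunit found in tissues that burn lactate, read 0.17, 0.30, 1.04 and −0.19 in the controls and 1.50, 1.81, 2.34 and 0.99 with the Pcgf1 shRNA. Every mouse was higher by more than 1 log2 unit, although the lowest Pcgf1 shRNA culture, of mouse 4, stood below the highest control, of mouse 3. Ldhb rose by 1.33 (SE 0.08), or 2.51-fold, in the blocked fit (limma adjusted p = 0.0139); without the block the SE was 0.33 and the adjusted p 0.138, and without mouse 2 the blocked value was 0.0897. Over all alternatives its adjusted p ran from 0.0114 to 0.745 and its difference from 1.27 to 1.43. The other subunit, Ldha, differed by −0.11.

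Some genes that work beside the respiratory complexes were chosen after their values were seen. Cycs, the cytochrome c that carries electrons from complex III to IV, read 5.62, 5.68, 5.52 and 5.53 in the controls and 5.33, 5.34, 5.25 and 5.00 with the Pcgf1 shRNA. The groups did not overlap, as happened in 7.16% of all genes, and the difference was −0.36 (SE 0.10, limma adjusted p = 0.177, and 0.0554 with the block). Cs, the citrate synthase, read 6.40, 6.47, 6.45 and 6.44 against 6.23, 6.23, 6.18 and 6.08, a difference of −0.26 (SE 0.07; limma adjusted p = 0.183, and 0.0938 with the block), again without overlap. Idh2, listed with the citric acid cycle as well, went the other way, by 0.39 (limma adjusted p = 0.31, and 0.0738 with the block). Of the 22 measured genes of that list 16 had higher and 6 lower means. Atpaf1, of the further assembly factors, differed by −0.335 (limma adjusted p = 0.187, and 0.0749 with the block), where 25 of 40 means were higher and 15 lower. Myc, a growth regulator that acts on many mitochondrial genes, differed by 0.49 (limma adjusted p = 0.184, and 0.0649 with the block). Of the 24 regulators of mitochondrial DNA expression and biogenesis 17 had higher and 7 lower means. Gabpb1 differed by 0.30 (limma adjusted p = 0.271, and 0.136 with the block), its partner Gabpa by 0.00090 and Tfam, which packs mitochondrial DNA, by −0.03, and the ADP/ATP carriers Slc25a4 and Slc25a5 by 0.09 and 0.02.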

How the data were processed

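Total RNA of the 8 cultures was labelled with Cy3 (400 ng each) and hybridised to Agilent mouse arrays. The deposited spot files, read with Agilent Feature Extraction 10.1 per the submitters' processing notes, give the background-subtracted intensity of each spot, with no scaling between arrays per the file headers. The value table deposited by the authors is in log2 units, centred on each probe's median (its columns follow the scaled spot values with r of at least 0.9999); its column medians were 0.05, 0.11, 0.10 and −0.13 in the controls of mice 1 to 4 and 0.10, −0.05, −0.11 and −0.20 with the Pcgf1 shRNA, and it served as an alternative.

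From the spot files, log2 intensity minus the array's 75th percentile was used. Control spots and 242 values marked non-uniform were left out, and repeated spots were averaged. Probes had to be well above background on all 4 arrays of a group, which kept 22747 of 41174. RefSeq accessions named 24375 probes (GRCm38.p6 tables) and the other 16799 kept their identifiers; each gene was read from its probe of highest mean log2 signal. For 17 of the measured genes with over 1 probe, the differences of the probes lay a median of 0.0568 apart and at most 0.181, in Ndufv3.

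The shRNAs were compared by limma (version 3.58.1, under R 4.3.3) with moderated, two-sided tests; p-values of all tested genes were adjusted together by Benjamini-Hochberg and called at 0.05. The fit was also run on simulated data with independent noise on each array. These had no effect shared by the cultures of a mouse, so the run did not test the pairing. Each mouse gave both cultures, so its number pairs them: deviations from the group means correlated at 0.439, 0.481, 0.407 and 0.642 within mice, and at most at 0.25 between mice. With 4 arrays per group their number limits the precision. Each of the 2 slides held both groups of 2 mice.

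The genes, lists and rules were chosen with earlier results of these data known. Named were the genes past the threshold with or without the block, the 3 with the smallest p of each complex and of the Ndufaf genes, the catalytic core and the isoform sets (1 gene is counted but not reported here); from each related list, genes past the threshold in either fit, up to 3. Alternatives were the mouse or the slide as a block, quantile normalization, median scaling, normexp background correction (offset 50), the value table, no filter on dim probes, the mean of a gene's probes, array weights, only the subunits of the 5 complexes, and each mouse left out; mouse as a block without the filter was added after the data were seen. Promoter sequences are RefSeq's.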

Additional observations from a re-analysis of the deposited data

Results flagged for a closer look

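Among 90 groups of 4 cultures (45 genes named in the text, each shRNA on its own), 3 had 1 culture far from the other 3, where the gap to the nearest filled more of the range than Dixon's 95% limit; chance gives about 1 in 20. Atp5g1, a gene of the rotor ring of complex V, stood at 5.885 in the control culture of mouse 2 against 5.68 to 5.70 in the other controls. Cox5a, a complex IV subunit, stood at 6.04 in the Pcgf1 shRNA culture of mouse 4 against 6.36 to 6.42 in the others. Uqcrc2, a core protein of complex III, stood at 4.96 in the same culture against 5.20 to 5.22.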

How the results depend on the processing

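The count of 0 genes of oxidative phosphorylation past the threshold held with mouse or slide as a replicate block (blocked: 0, with 4 at an unadjusted p under 0.05), under each scaling and background correction, with the value table, without the filter, with the mean of the probes, for the subunits alone and with each mouse left out; the exception was 3 with array weights. Over all genes the count of 132 became 921 with mouse as a replicate block, 1652 with array weights, 77 with normexp, 0 without the filter (also with the block) and 0 to 363 with a mouse left out. The related lists went from 0 to 1 with the block, 8 with array weights and 0 to 1 with a mouse left out. Without the filter the Pcgf1 difference of −1.36 had an adjusted p of 0.104, and of 0.190 with the block as well; with a mouse left out it was −1.38 to −1.34. Of the 43 named genes 21 kept their sign under every alternative, and no value that changed sign was above 0.10 in size. Median scaling, with 17 of these changes, moved the median of all genes from 0.0022 to 0.10, so they say nothing of single genes; for the other changes the cause was not tested. With quantile normalization the sign turned for Atp5b 0.033, Atp5g2 0.055, Atp5g3 0.0019, Atp5o 0.026, Cox4i1 0.021 and Cox8a 0.020. With median scaling the sign turned for Atp5b 0.081, Atp5g1 0.042, Atp5g2 0.099, Atp5g3 0.067, Atp5h 0.048, Atp5o 0.096, Cox4i1 0.094, Cox5a 0.048, Cox5b 0.055, Cox6b1 0.044, Cox7a2 0.079, Cox7b 0.094, Cox8a 0.081, Ndufs3 0.060, Ndufs7 0.025, Sdhb 0.049 and Uqcrh 0.036. With the mean of the probes the sign turned for Atp5b 0.023 and Atp5g2 0.019. With array weights the sign turned for Atp5b 0.027, Atp5g1 0.066, Atp5g2 0.032, Atp5g3 0.040, Atp5o 0.10, Cox4i1 0.040, Cox5a 0.019, Cox5b 0.083, Cox6b1 0.058, Cox7b 0.042, Cox8a 0.072, Ndufs3 0.087 and Sdhb 0.012. With normexp background correction the sign turned for Atp5g2 0.0078, Atp5g3 0.0045, Cox7a2 0.038, Cox7b 0.039 and Ndufs3 0.0072. With a mouse left out, values that turned sign at least once ran from −0.11 to 0.036 for Atp5b, from −0.051 to 0.094 for Atp5c1, from −0.13 to 0.034 for Atp5g1, from −0.089 to 0.064 for Atp5g2, from −0.15 to 0.046 for Atp5g3, from −0.063 to 0.069 for Atp5o, from −0.084 to 0.053 for Cox4i1, from −0.11 to 0.032 for Cox5b, from −0.14 to 0.053 for Cox6b1, from −0.10 to 0.055 for Cox7a2, from −0.046 to 0.072 for Cox7b, from −0.11 to 0.060 for Cox8a, from −0.13 to 0.058 for Ndufs3, from −0.034 to 0.12 for Ndufv2, from −0.025 to 0.074 for Sdhc, from −0.0068 to 0.095 for Sdhd, from −0.018 to 0.084 for Uqcrfs1 and from −0.17 to 0.010 for Uqcrh.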
